A study of Mus musculus with 4 samples.

Results

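The comparison described here set the library of mouse prostate fibroblasts that had both BuOE and radiation (BuOE_rad) against the library that had neither (PBS), across all genes whose mean over the 4 libraries of the study was 1 CPM or more (counts scaled to a common library total, the unit of all levels below). Of the 56748 genes in the deposited count table, 14365 met this limit. The gene closest above it, D530018E20Rik, had 1.52 CPM in BuOE_rad and 0.920 CPM in PBS, and the gene closest below it, 9330162G02Rik, had 0.864 CPM in BuOE_rad and 1.5 CPM in PBS. The 4 libraries, 1 for each condition, were BuOE_rad, BuOE alone, radiation with phosphate-buffered saline (PBS_rad) and PBS alone. All came from male C57BL/6 mice (CB57BL/6 in the genotype label) aged 8 to 10 weeks, from whose prostates cells were freed with collagenase and grown in medium with serum before RNA was isolated. Mice of the BuOE_rad and PBS_rad libraries had received 37.5 Gy to the pelvis with the rest of the body behind lead, as 7.5 Gy fractions over 5 days at 1.2 Gy per minute, and the BuOE and PBS libraries carry no radiation label. The labels give no dose or time for BuOE and do not say whether animals or cultures received it, how many animals a library pools, or how long after radiation the cells were taken. The title of the study speaks of giving the compound 3 weeks after irradiation, and the labels do not say whether that schedule holds for these libraries. The study's title, as far as it states a purpose, is concerned with how the compound acts in radiation-induced fibrosis. The BuOE_rad and PBS libraries differ in both BuOE and radiation, so their ratio cannot separate the treatments. With 1 library on each side the comparison has no replicate check, no test and no p-value. Each ratio compares these libraries, not the conditions, and the 95% intervals given with ratios cover counting error only.

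The letters BuOE occur in the chemical name of BMX-001, a manganese porphyrin that acts as a mimic of superoxide dismutase, the enzyme that converts superoxide to hydrogen peroxide. Ionizing radiation breaks DNA, and cells answer through p53, which arrests the cell cycle by way of Cdkn1a. Irradiated tissue can later scar, when fibroblasts turn into contractile myofibroblasts under transforming growth factor beta (TGF-beta) and lay down collagen. The prostate holds secretory luminal epithelium and basal epithelium besides its stroma of fibroblasts and smooth muscle.

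The counts summed to 24996835 in BuOE_rad, 28856043 in BuOE, 35915448 in PBS_rad and 29744664 in PBS, and 3 counts equalled between 0.0842 and 0.123 CPM. The fibroblast label was checked against markers. All 18 fibroblast markers were measured, and their summed level was 7928 CPM in BuOE_rad, 8777 in BuOE, 12337 in PBS_rad and 9568 in PBS. Epithelial markers were present in every library as well, with all 25 measured and a summed level of 8499 CPM in BuOE_rad, 8041 in BuOE, 5154 in PBS_rad and 5933 in PBS. Markers of endothelium, pericytes, Schwann cells and macrophages were also read in all 4, and the 10 lymphocyte markers lay below a mean of 1 CPM. Markers of more than 1 cell type were thus read in every library, and in bulk RNA fewer cells of a type and less RNA per cell cannot be told apart.

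In the BuOE_rad library 1313 genes (9.14%) were 2-fold or more higher than in the PBS library and 901 (6.27%) were 2-fold or more lower, 15.4% in either direction. Counts of genes called 2-fold higher or lower have this meaning throughout, and the size of a gene list is its number of measured genes unless both numbers are given. For every gene list, the shares to set beside its counts are these 9.14% higher and 6.27% lower over all genes. The log2 ratio was above 0 for 6709 genes (46.7%) and below 0 for 53.3%. Past 4-fold, 287 genes were higher and 129 lower. At 8-fold the counts were 82 higher and 15 lower. The median log2 ratio of BuOE_rad over PBS was -0.048, and the middle 90% of genes lay between -1.10 and 1.38. The counting interval left out a log2 ratio of 0 for 10677 genes (74.3%), so at this depth counting error was small beside most ratios, while the spread between cultures of 1 condition is unknown. Genes of the higher set summed to 118738 CPM in BuOE_rad, 67595 in BuOE, 59596 in PBS_rad and 38092 in PBS. Genes of the lower set summed to 22625 CPM in BuOE_rad, 36833 in BuOE, 48090 in PBS_rad and 62202 in PBS. Both sets were chosen by the BuOE_rad over PBS ratio itself, so their sums in these libraries are a description only.

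By the share of genes 2-fold apart and by the median absolute log2 ratio, the BuOE_rad and PBS libraries were the pair farthest apart of the 6 that the 4 libraries form. The share of genes 2-fold apart was 15.4% between BuOE_rad and PBS, 12.9% between BuOE and PBS, 9.74% between BuOE_rad and PBS_rad, 7.21% between BuOE_rad and BuOE, 7.21% between BuOE and PBS_rad and 6.63% between PBS_rad and PBS. The median absolute log2 ratio was 0.42 for BuOE_rad against PBS and ranged from 0.20 to 0.32 for the other pairs. By the standard deviation of the log2 ratio over genes, BuOE against PBS was the widest pair at 0.84, and BuOE_rad against PBS had 0.81. With a limit of 10 CPM in place of 1, BuOE_rad against PBS again had the highest share, 11.1%. These pairs share libraries, so the shares are not independent of each other.

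**Figure D1:**
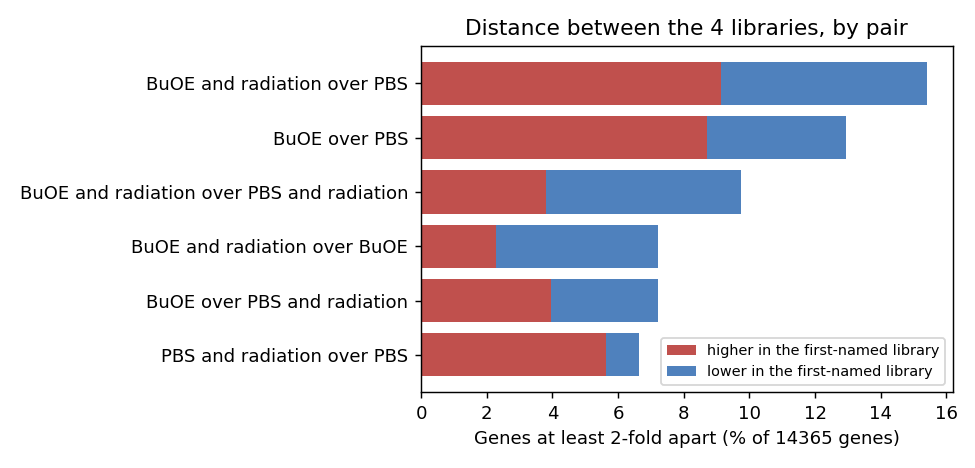
Share of the 14365 genes 2-fold or more apart for each of the 6 pairs of libraries (x axis, percent), split into genes higher and lower in the first-named library of the pair. BuOE and radiation over PBS has the longest bar, 15.4%, and PBS and radiation over PBS the shortest, 6.63%.

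At a mean of 10 CPM or more, the 12 highest ratios included 4 genes of prostate secretion (Tgm4, Msmb, Pate4 and Pbsn), the hypoxia marker Car9, the cornified envelope gene Sprr1a and the oxidase gene Ero1l. Tgm4 (ENSMUSG00000025787), the prostate transglutaminase of the copulatory plug, had 86.4 CPM in BuOE_rad, 45.7 in BuOE, 41.1 in PBS_rad and 1.91 in PBS, a log2 ratio of 5.45 (counting interval 5.12 to 5.91). Sprr1a, a small proline-rich protein of the cornified envelope, had 907 CPM in BuOE_rad, 190.4 in BuOE, 111 in PBS_rad and 36.2 in PBS, with a log2 ratio of 4.65 (counting interval 4.56 to 4.74). Depp1, a target of FOXO transcription factors, had 69.8 CPM in BuOE_rad, 16.1 in BuOE, 14.7 in PBS_rad and 2.21 in PBS. These genes were chosen by their ratio of BuOE_rad over PBS, and the values of both single-treatment libraries lay between. Chosen the same way were Cdh23, a cadherin of inner-ear hair cells, Kcna2, a voltage-gated potassium channel, Bc1, a small cytoplasmic RNA of neurons, and Tnfrsf9, the costimulatory receptor 4-1BB, which had log2 ratios of 4.40, 4.17, 4.23 and 3.72. Bc1 had 35.1 CPM in BuOE_rad, 6.0 in BuOE, 30.3 in PBS_rad and 1.81 in PBS, so its PBS_rad level stood near that of BuOE_rad.

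At the other end stood Hp (haptoglobin, ENSMUSG00000031722), which binds free hemoglobin, with 4.16 CPM in BuOE_rad, 3.0 in BuOE, 1.85 in PBS_rad and 365 in PBS. Its log2 ratio was -6.43, and PBS alone was high, with the other 3 libraries all under 5 CPM. Sbp, the spermine-binding protein of prostate secretion, had 12.8 CPM in BuOE_rad, 428 in BuOE, 439 in PBS_rad and 757 in PBS, and here it was the BuOE_rad library that stood apart. Lrg1, a secreted leucine-rich glycoprotein, had 2.47 CPM in BuOE_rad, 7.03 in BuOE, 5.61 in PBS_rad and 29.5 in PBS. Steap4, a metalloreductase, had 3.54 CPM in BuOE_rad, 26.4 in BuOE, 5.14 in PBS_rad and 22.5 in PBS. Its BuOE level was close to that of PBS and its PBS_rad level close to that of BuOE_rad. Gpr155, a lysosomal cholesterol-sensing protein, had 3.17 CPM in BuOE_rad, 16.1 in BuOE, 8.79 in PBS_rad and 24.5 in PBS. Tnfsf15, a cytokine of the tumor necrosis factor family, had 5.19 CPM in BuOE_rad, 2.7 in BuOE, 19 in PBS_rad and 28.5 in PBS, so it was low in both libraries with BuOE. The histone genes Hist1h3g, Hist1h1a and Hist1h2bl, the desaturase gene Scd1, Spink1 and Kif26b completed the 12 lowest.

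**Figure D2:**
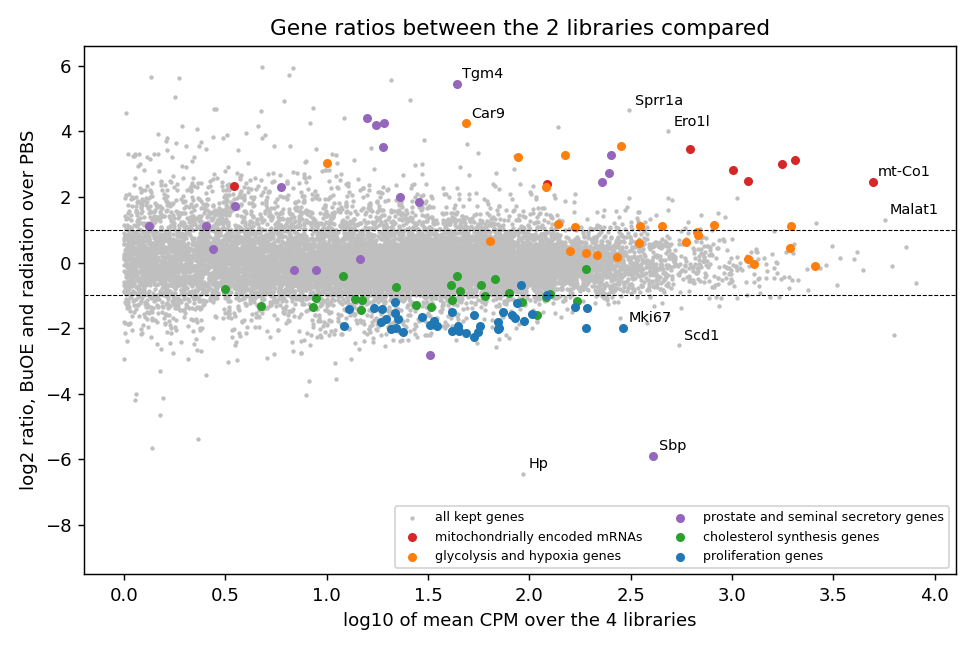
Log2 ratio of BuOE and radiation over PBS (y axis) against log10 of the mean CPM over the 4 libraries (x axis) for the 14365 genes in grey, with 5 gene lists in colour and dashed lines at 2-fold. The measured mitochondrial mRNAs all lie above the upper line, from mt-Co2 at low expression to mt-Co1 at high expression. The proliferation genes all lie below 0, and Hp and Sbp are the lowest of the labelled genes.

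The mRNAs encoded by the mitochondrial genome, which specify core subunits of the respiratory chain, had the highest median of the gene lists. Of 13, 8 were measured, and all 8 were 2-fold higher in BuOE_rad, with a median log2 ratio of 2.65 against -0.048 over all genes. mt-Co1, a core subunit of complex IV, had 10675 CPM in BuOE_rad, 3255 in BuOE, 3855 in PBS_rad and 1940.2 in PBS, a log2 ratio of 2.46 (counting interval 2.45 to 2.47). mt-Cytb, a subunit of complex III, had 5099 CPM in BuOE_rad, 1009.8 in BuOE, 1491 in PBS_rad and 579.7 in PBS. mt-Nd2, of complex I, had 1669.9 CPM in BuOE_rad, 266 in BuOE, 380.5 in PBS_rad and 153 in PBS. With a log2 ratio of 3.45 it led the list. The 13 mRNAs took 2.64% of the counts in BuOE_rad, 0.725% in BuOE, 0.864% in PBS_rad and 0.403% in PBS. Every measured member followed the same order, BuOE_rad highest and PBS lowest. The measured member with the fewest counts, mt-Co2, had 7.2 CPM in BuOE_rad, 2.54 in BuOE, 2.89 in PBS_rad and 1.36 in PBS, and mt-Nd3, mt-Nd4l, mt-Co3, mt-Atp6 and mt-Atp8 were below the limit. Near-identical nuclear copies make counts of mitochondrial mRNAs uncertain.

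Nuclear genes of the respiratory chain had ratios near 0. Of 31 nuclear-encoded respiratory chain subunits 11 lay above 0 and 20 below, none was 2-fold apart, and the median log2 ratio was -0.14. Ratios ran from 0.36 for Uqcrc2, a core protein of complex III, to -0.52 for Cox5b, a subunit of complex IV. Atp5b, the catalytic beta subunit of ATP synthase, had 728 CPM in BuOE_rad, 777 in BuOE, 874 in PBS_rad and 1016 in PBS. Among 15 genes of mitochondrial transcription and copy number, 6 lay above 0 and none was 2-fold apart. Ppargc1a, a coactivator of mitochondrial biogenesis, had 3.5 CPM in BuOE_rad, 4.02 in BuOE, 1.96 in PBS_rad and 1.94 in PBS. Lrpprc, which stabilizes mitochondrial mRNAs, had 47.6 CPM in BuOE_rad, 65.8 in BuOE, 76.3 in PBS_rad and 88 in PBS. Lrpprc was thus lowest in the library where the mitochondrial mRNAs were highest. Lars2, the mitochondrial leucyl-tRNA synthetase, had 108 CPM in BuOE_rad, 706 in BuOE, 314 in PBS_rad and 388 in PBS. It was among the 6 genes lying farthest below the other 3 libraries. Of 12 mitochondrial stress response genes 8 lay above 0, 2 were 2-fold higher and none 2-fold lower (median 0.17). Hspa9, the chaperone of mitochondrial import, had 901 CPM in BuOE_rad, 581 in BuOE, 673 in PBS_rad and 671 in PBS.

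Genes of cell division were lower without exception. All 40 proliferation genes were lower in BuOE_rad than in PBS, 38 of them 2-fold lower, where 6.27% of all genes were, and the median log2 ratio was -1.79. Mki67 (ENSMUSG00000031004), the proliferation antigen Ki-67, had 112 CPM in BuOE_rad, 169 in BuOE, 438 in PBS_rad and 446 in PBS, a log2 ratio of -1.99 (counting interval -2.05 to -1.93). Ccna2, the cyclin of S phase and G2, had 18.1 CPM in BuOE_rad, 31 in BuOE, 77.2 in PBS_rad and 87.9 in PBS, the lowest ratio of the list at -2.27. Rrm2, the small subunit of ribonucleotide reductase, had 116 CPM in BuOE_rad, 99.3 in BuOE, 252 in PBS_rad and 307 in PBS. Pcna, the sliding clamp of DNA polymerase, had the ratio nearest to 0 at -0.68, with 70.6 CPM in BuOE_rad, 75.1 in BuOE, 105 in PBS_rad and 113 in PBS. The summed level of the list was 1275 CPM in BuOE_rad, 1613 in BuOE, 3467 in PBS_rad and 4033 in PBS. The BuOE_rad and BuOE libraries were low together, and PBS_rad and PBS were high together. Median log2 ratios over PBS were -1.79 for BuOE_rad, -1.38 for BuOE and -0.24 for PBS_rad, 3 comparisons that share the PBS library.

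Replication-dependent histone genes, which are expressed in S phase, were mostly lower too. Of 67, 54 were measured, of which 42 were 2-fold lower and 1 was 2-fold higher, with a median log2 ratio of -1.71. Hist1h3g had 2.55 CPM in BuOE_rad, 4.98 in BuOE, 14.7 in PBS_rad and 21.8 in PBS, the lowest ratio of the list. The gene that was 2-fold higher was Hist1h1c, a linker histone, with 582 CPM in BuOE_rad, 279 in BuOE, 265 in PBS_rad and 243 in PBS. This list was chosen after values were seen, and its members are near-identical copies whose counts are uncertain. Of 24 DNA repair genes 23 lay below 0 and 8 were 2-fold lower, with a median of -0.71. Brca1, of homologous recombination, had 10.2 CPM in BuOE_rad, 15.3 in BuOE, 32.5 in PBS_rad and 37.4 in PBS, the lowest ratio at -1.87. Parp1, the poly(ADP-ribose) polymerase of strand-break repair, had 73.7 CPM in BuOE_rad, 79.5 in BuOE, 104 in PBS_rad and 127 in PBS. Msh6, of mismatch repair, alone lay above 0, at 0.082, and its counting interval reached 0. Ccnd1, the cyclin of G1, had 175 CPM in BuOE_rad, 242 in BuOE, 189.6 in PBS_rad and 259 in PBS. Cdkn2a, the locus of p16 and p19, had few counts, with 0.823 CPM in BuOE_rad, 0.495 in BuOE, 1.91 in PBS_rad and 2.21 in PBS.

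Many promoters of cell cycle genes carry a CCAAT box and the cell cycle genes homology region, letters TTTGAA, which the MuvB complexes bind. The sequence upstream of Mki67 is shown because that gene had the most counts of the list and its window holds 2 copies. It is the 250 bases before the RefSeq start in GRCm38.p6, chr7:135716380-135716629 on the minus strand, with TTTGAA in capitals.
Mki67: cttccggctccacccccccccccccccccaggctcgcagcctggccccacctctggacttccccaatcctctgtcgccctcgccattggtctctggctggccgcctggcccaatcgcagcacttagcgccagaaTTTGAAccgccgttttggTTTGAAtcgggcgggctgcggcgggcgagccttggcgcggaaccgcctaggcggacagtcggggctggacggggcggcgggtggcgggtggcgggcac
Of 32 proliferation genes with a RefSeq window, 8 (25%) held TTTGAA or its complement in the 250 bases, against 16.3% of 27025 genes with such a window. CCAAT, copies of which can overlap TTTGAA by an end letter, was found on either strand in 25 of the 32 (78.1%), against 34.5% of all. A match describes these letters only.

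**Figure D3:**
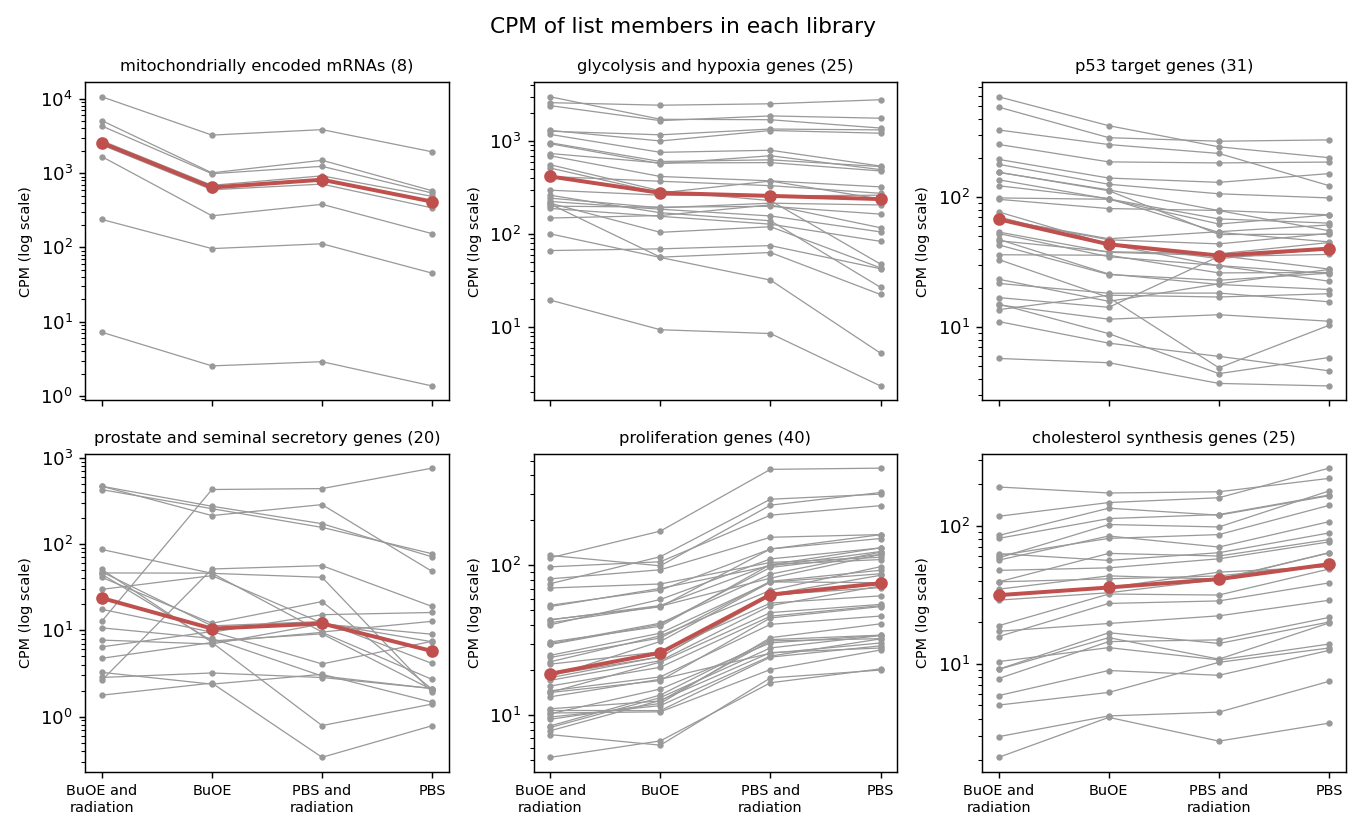
CPM on a log scale (y axis) of each measured member of 6 gene lists in the 4 libraries (x axis), with 1 grey line per gene that links its values and a red line for the median over members. The mitochondrial mRNAs are highest in BuOE and radiation, the proliferation genes are low in both libraries with BuOE, and the secretory genes show 2 members, Sbp and Spink1, that are 2-fold lower in BuOE and radiation than in PBS.

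Targets of p53 were mostly higher. Of 31, 28 lay above 0, 12 were 2-fold higher and 1 was 2-fold lower, with a median log2 ratio of 0.81. Cdkn1a, the p21 inhibitor of cyclin-dependent kinases, had 591 CPM in BuOE_rad, 354 in BuOE, 244 in PBS_rad and 201 in PBS, a log2 ratio of 1.55 (counting interval 1.51 to 1.60). Pmaip1, the death protein Noxa, led the list at 1.76 and had 77 CPM in BuOE_rad, 43.5 in BuOE, 29.7 in PBS_rad and 22.6 in PBS. Both genes ran from BuOE_rad over BuOE and PBS_rad to PBS, high to low. Gdf15, a stress cytokine, had 33.2 CPM in BuOE_rad, 17 in BuOE, 4.88 in PBS_rad and 10.4 in PBS, so PBS_rad was lower than PBS for this gene. Mdm2, the ubiquitin ligase that p53 induces against itself, had 195 CPM in BuOE_rad, 140.2 in BuOE, 129.9 in PBS_rad and 152 in PBS, a log2 ratio of 0.36. The member 2-fold lower was Ckap2, a spindle protein also tied to proliferation, with 16.9 CPM in BuOE_rad, 14.2 in BuOE, 35.1 in PBS_rad and 36.3 in PBS.

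Stress genes that answer to translation and to growth signals were higher in part. Among 26 amino acid stress genes, most of them targets of Atf4, 5 were 2-fold higher and none 2-fold lower (median 0.32). Ddit3, the transcription factor CHOP, had 59.8 CPM in BuOE_rad, 20.6 in BuOE, 16.8 in PBS_rad and 14.1 in PBS. Atf4 itself had 396 CPM in BuOE_rad, 257 in BuOE, 252 in PBS_rad and 208 in PBS. Both were highest in BuOE_rad and lowest in PBS. Vldlr, a lipoprotein receptor, had 165 CPM in BuOE_rad, 82.3 in BuOE, 65.6 in PBS_rad and 23 in PBS, the highest ratio of the list. Psat1, of serine synthesis, had 107 CPM in BuOE_rad, 75.6 in BuOE, 153 in PBS_rad and 175 in PBS, the lowest. Of 23 immediate early genes, 7 were 2-fold higher and 2 were 2-fold lower (median 0.68). Atf3, a stress-induced transcription factor, had 124 CPM in BuOE_rad, 75.2 in BuOE, 48 in PBS_rad and 24.4 in PBS. Egr2, a zinc finger factor, had 44.4 CPM in BuOE_rad, 55.1 in BuOE, 73.5 in PBS_rad and 111 in PBS, the reverse order.

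Chaperone genes lay on both sides of 0. Of 24 genes of the unfolded protein response in the endoplasmic reticulum (ER), 13 lay above 0 and 11 below, and 2 were 2-fold higher. Hspa5, the ER chaperone BiP, had 2557 CPM in BuOE_rad, 1129.7 in BuOE, 1422 in PBS_rad and 1313 in PBS, just under 2-fold with a log2 ratio of 0.96, and only the BuOE_rad library stood apart. Calr, the ER lectin chaperone calreticulin, had 1343 CPM in BuOE_rad, 1143 in BuOE, 1524 in PBS_rad and 1854 in PBS, a log2 ratio of -0.46. Ero1l, the ER oxidase that recharges protein disulfide isomerase, was among the 12 highest of all genes with 1164 CPM in BuOE_rad, 346 in BuOE, 345 in PBS_rad and 72.3 in PBS. Of 19 heat shock genes 4 were 2-fold higher. Their median was -0.10, and it became 0.0026 with upper-quartile scaling. Hspa1a, an inducible HSP70 with a near-identical copy in Hspa1b, had 53.9 CPM in BuOE_rad, 20.8 in BuOE, 12.5 in PBS_rad and 8.48 in PBS. Hspd1, the mitochondrial HSP60, had 293 CPM in BuOE_rad, 279 in BuOE, 452 in PBS_rad and 524 in PBS, low in both libraries with BuOE.

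The upstream sequence of Hspa5 is shown because the ER stress element (CCAAT and CCACG held apart by any 9 bases, either strand) was found in 9 of 20 windows of this list (45%) against 0.122% of all windows, while the list's ratios lay on both sides of 0. The window is chr2:34771840-34772089 on the plus strand of GRCm38.p6, with the element in capitals.
Hspa5: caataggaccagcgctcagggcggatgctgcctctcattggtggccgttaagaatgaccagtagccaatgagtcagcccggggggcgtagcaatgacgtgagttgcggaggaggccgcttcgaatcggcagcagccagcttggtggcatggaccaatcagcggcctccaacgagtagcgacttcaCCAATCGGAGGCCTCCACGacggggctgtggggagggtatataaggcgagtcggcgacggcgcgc
Members with the element had log2 ratios from -0.62 for Creld2 and -0.46 for Calr to 0.96 for Hspa5 and 2.81 for Derl3, an ER degradation factor. Derl3 had 2.8 CPM in BuOE_rad, 1.02 in BuOE, 0.842 in PBS_rad and 0.341 in PBS. The element begins with CCAAT and so contains the CCAAT box searched above.

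Genes of glycolysis and of the response to low oxygen were mostly higher. Of 25, 23 lay above 0, 12 were 2-fold higher and none 2-fold lower, with a median log2 ratio of 0.93. Car9 (ENSMUSG00000028463), a carbonic anhydrase and marker of hypoxia, had 101 CPM in BuOE_rad, 56.3 in BuOE, 32.2 in PBS_rad and 5.28 in PBS, a log2 ratio of 4.24 (counting interval 4.02 to 4.50). Aldoa, a glycolytic aldolase, had 2989.5 CPM in BuOE_rad, 1715 in BuOE, 1696 in PBS_rad and 1379.8 in PBS. Pkm, pyruvate kinase, had 2586 CPM in BuOE_rad, 2428 in BuOE, 2514 in PBS_rad and 2779 in PBS, and its log2 ratio of -0.10 became 0.0031 with upper-quartile scaling. A further 4 members, chosen after their values were seen (Ndrg1, Egln3, Adm and Ankrd37), had log2 ratios of 3.54, 3.28, 3.22 and 3.03. Egln3, an oxygen-sensing prolyl hydroxylase, had 262 CPM in BuOE_rad, 170.2 in BuOE, 139.5 in PBS_rad and 26.9 in PBS. In these 4 genes and in Car9 the PBS library was the lowest of the 4. Of 21 growth factors 3 were 2-fold higher and 1 was 2-fold lower. Pgf, placental growth factor, had 116 CPM in BuOE_rad, 37.5 in BuOE, 35.1 in PBS_rad and 9.37 in PBS. Vegfa, which drives vessel growth and is induced by hypoxia, had 1179 CPM in BuOE_rad, 757 in BuOE, 798 in PBS_rad and 539 in PBS. Vegfc, which acts on lymphatic vessels, had 21.5 CPM in BuOE_rad, 21.6 in BuOE, 38.1 in PBS_rad and 51.2 in PBS. Pgf and Vegfa were lowest in PBS, and Vegfc was highest there.

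Hypoxia-inducible factors bind elements with the core ACGTG. The sequence upstream of Car9 is shown because it had the highest ratio of the list, and it is chr4:43506776-43507025 on the plus strand of GRCm38.p6 with ACGTG or its complement in capitals.
Car9: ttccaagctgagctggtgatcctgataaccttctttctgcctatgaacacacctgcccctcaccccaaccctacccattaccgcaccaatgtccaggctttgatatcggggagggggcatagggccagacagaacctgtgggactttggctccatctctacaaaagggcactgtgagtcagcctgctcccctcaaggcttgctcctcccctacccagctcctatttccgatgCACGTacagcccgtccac
In all, 12 of 24 windows of the list (50%) held the core on either strand, against 16.6% of all 27025 windows. Copies of ACGTG can overlap the end of the ER stress element.

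**Figure D4:**
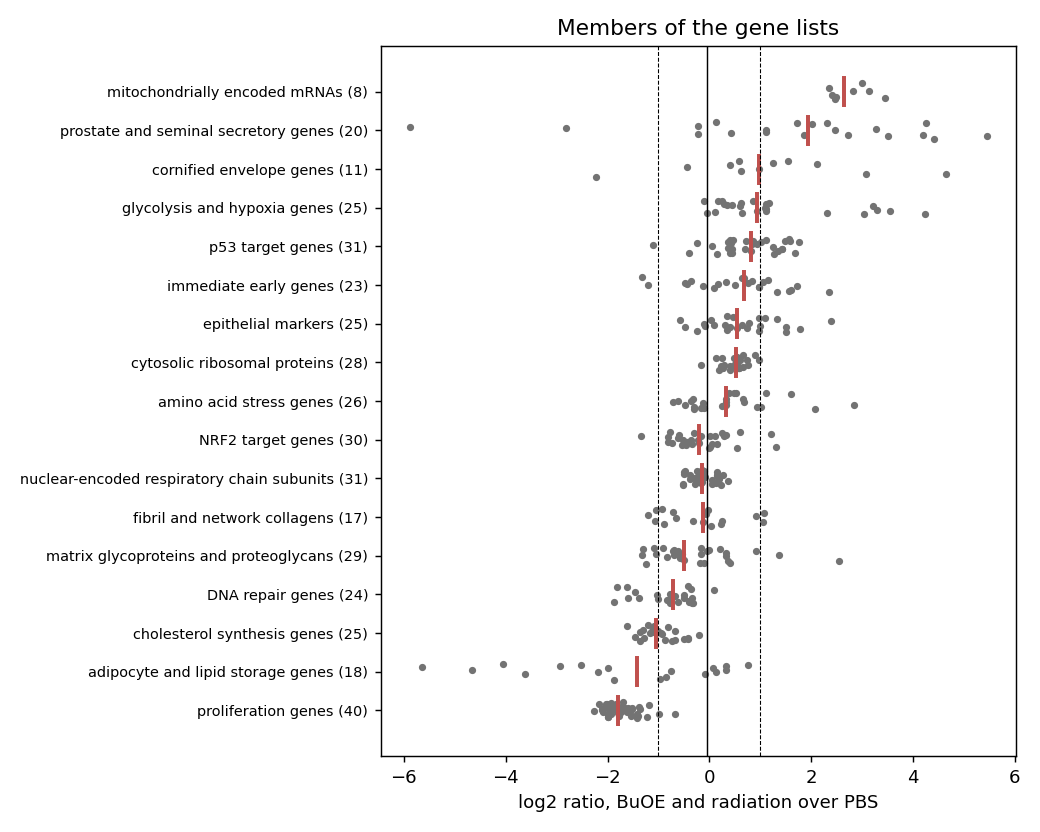
Log2 ratio of BuOE and radiation over PBS (x axis) of each measured member (grey points) of 17 gene lists, with the number of members in brackets, the list median as a red bar, the median of all genes as a solid line and 2-fold as dashed lines. Among the lists shown, mitochondrial mRNAs have the highest median, 2.65, and proliferation genes the lowest, -1.79. Skeletal muscle genes, not shown, had a lower median, -2.15 over 7 measured genes.

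Lipid synthesis genes were mostly lower. All 25 cholesterol synthesis genes lay below 0 and 14 were 2-fold lower, with a median of -1.04. Hmgcs1, which makes hydroxymethylglutaryl-CoA, had 85.2 CPM in BuOE_rad, 134 in BuOE, 119 in PBS_rad and 165 in PBS, a log2 ratio of -0.96 (counting interval -1.03 to -0.88). For this gene PBS was the highest library and BuOE_rad the lowest. Srebf2, the transcription factor of the pathway, had 191 CPM in BuOE_rad, 173 in BuOE, 176 in PBS_rad and 221 in PBS, the ratio nearest to 0. Of 12 fatty acid synthesis genes 11 lay below 0 and 4 were 2-fold lower (median -0.65). Scd1, a stearoyl-CoA desaturase, had 236 CPM in BuOE_rad, 302 in BuOE, 295 in PBS_rad and 1349.9 in PBS, low in all 3 treated libraries. Its paralog Scd2 had 412 CPM in BuOE_rad, 732 in BuOE, 570.2 in PBS_rad and 743 in PBS. Fatty acid oxidation genes were split, with 7 above 0 and 8 below. Cpt1a, the carnitine palmitoyltransferase of mitochondrial import, had 158 CPM in BuOE_rad, 197 in BuOE, 208 in PBS_rad and 211 in PBS, within 2-fold in all 4 libraries.

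The window upstream of Hmgcs1, chr13:119690101-119690350 on the plus strand of GRCm38.p6, is shown because it was the only one of the 17 windows of cholesterol synthesis genes with the sterol regulatory element TCACNCCAC, here in capitals.
Hmgcs1: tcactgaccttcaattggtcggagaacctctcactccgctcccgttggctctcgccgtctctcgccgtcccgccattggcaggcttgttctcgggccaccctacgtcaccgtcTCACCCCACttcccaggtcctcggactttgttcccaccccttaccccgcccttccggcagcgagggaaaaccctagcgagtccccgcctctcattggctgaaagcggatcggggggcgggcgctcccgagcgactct
That is 5.88% of the list's windows, against 1.04% of all windows, on either strand. The remaining 24 measured members were also lower in BuOE_rad, and none held these letters in a window searched here.

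Collagens and matrix glycoproteins lay below 0 more often than above. So did 53.3% of all genes, whose median log2 ratio was -0.048. Of 17 collagens 6 lay above 0 and 11 below, 2 were 2-fold higher and 3 were 2-fold lower, where 9.14% of all genes were higher and 6.27% lower, with a median of -0.13. Col1a1, the alpha 1 chain of type I collagen and a marker of fibrosis, had 795 CPM in BuOE_rad, 1443 in BuOE, 2249 in PBS_rad and 1652 in PBS, a log2 ratio of -1.06 (counting interval -1.08 to -1.03). Col3a1, of type III collagen, had 1012 CPM in BuOE_rad, 1725 in BuOE, 2687 in PBS_rad and 1264 in PBS. Both were highest in PBS_rad and lowest in BuOE_rad. Col15a1, of basement membrane zones, had 171 CPM in BuOE_rad, 248 in BuOE, 293 in PBS_rad and 81.6 in PBS and was lowest in PBS. Of 29 glycoproteins and proteoglycans 8 lay above 0 and 21 below, 2 were 2-fold higher and 5 were 2-fold lower (median -0.51). Fbln2, fibulin-2, had 557 CPM in BuOE_rad, 429.8 in BuOE, 1049 in PBS_rad and 1394 in PBS. Fn1, fibronectin, had 3997 CPM in BuOE_rad, 3747 in BuOE, 5576 in PBS_rad and 3182 in PBS. Eln, elastin, had 11.2 CPM in BuOE_rad, 16.2 in BuOE, 27.9 in PBS_rad and 1.87 in PBS. Fn1 and Eln were both highest in PBS_rad and lowest in PBS.

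Enzymes that mature collagen lay on both sides of 0. Of 20, 4 were 2-fold higher and 4 were 2-fold lower (median -0.45). P4hb, the beta subunit of prolyl 4-hydroxylase, had 1576 CPM in BuOE_rad, 1114 in BuOE, 1357 in PBS_rad and 1250.2 in PBS. Lox, the cross-linking lysyl oxidase, had 866 CPM in BuOE_rad, 823 in BuOE, 1336 in PBS_rad and 1717 in PBS. Pcolce, which enhances procollagen cleavage, had 59.1 CPM in BuOE_rad, 78.2 in BuOE, 163 in PBS_rad and 168 in PBS. Lox and Pcolce were low in both libraries with BuOE. Of 20 matrix-degrading proteases 14 lay above 0, 3 were 2-fold higher and none 2-fold lower (median 0.17). Adamts4, an aggrecanase, had 209 CPM in BuOE_rad, 204 in BuOE, 192 in PBS_rad and 58 in PBS, low in PBS alone. Mmp3, stromelysin-1, had 1345 CPM in BuOE_rad, 1329.8 in BuOE, 1188 in PBS_rad and 1078 in PBS. Among 8 matrix protease inhibitors, Timp1, which blocks metalloproteinases, had 718 CPM in BuOE_rad, 771 in BuOE, 1229 in PBS_rad and 1533 in PBS, and the list median of 0.09 became -0.073 with a limit of 10 CPM.

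Contractile genes lay on both sides of 0. Acta2, the smooth muscle actin that marks myofibroblasts, had 298 CPM in BuOE_rad, 308 in BuOE, 845 in PBS_rad and 782 in PBS, a log2 ratio of -1.39 (counting interval -1.43 to -1.35), low in both libraries with BuOE. Cnn1, the smooth muscle calponin, had 22.9 CPM in BuOE_rad, 12.5 in BuOE, 11.1 in PBS_rad and 4.53 in PBS, and its log2 ratio was 2.32. Of 17 contractile genes 6 were 2-fold higher and 2 were 2-fold lower, with a median of 0.35 that became -0.0084 with a limit of 10 CPM. Tpm1, tropomyosin 1, had 831 CPM in BuOE_rad, 786 in BuOE, 1171 in PBS_rad and 1184 in PBS, lower in both libraries with BuOE. Of 18 TGF-beta response genes none was 2-fold apart, 12 lay below 0 and the median was -0.23. Tgfb1, the ligand, had 219.6 CPM in BuOE_rad, 271 in BuOE, 281 in PBS_rad and 287 in PBS. Ccn2, connective tissue growth factor, had 954 CPM in BuOE_rad, 494 in BuOE, 1037 in PBS_rad and 863 in PBS. For Ccn2 the BuOE library was the lowest. Il11, a profibrotic cytokine, had 246 CPM in BuOE_rad, 304 in BuOE, 396 in PBS_rad and 144 in PBS. Id1, an inhibitor of differentiation factors, had 47.4 CPM in BuOE_rad, 51.5 in BuOE, 67.9 in PBS_rad and 94.4 in PBS. Of 18 YAP and TEAD targets, genes that answer to cell stretch and density, 1 was 2-fold higher, F3 or tissue factor, with 210.4 CPM in BuOE_rad, 85.4 in BuOE, 142 in PBS_rad and 81.5 in PBS, and the list median of -0.018 became 0.089 with upper-quartile scaling. Postn, periostin, had 237 CPM in BuOE_rad, 382 in BuOE, 344 in PBS_rad and 179 in PBS.

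**Figure D5:**
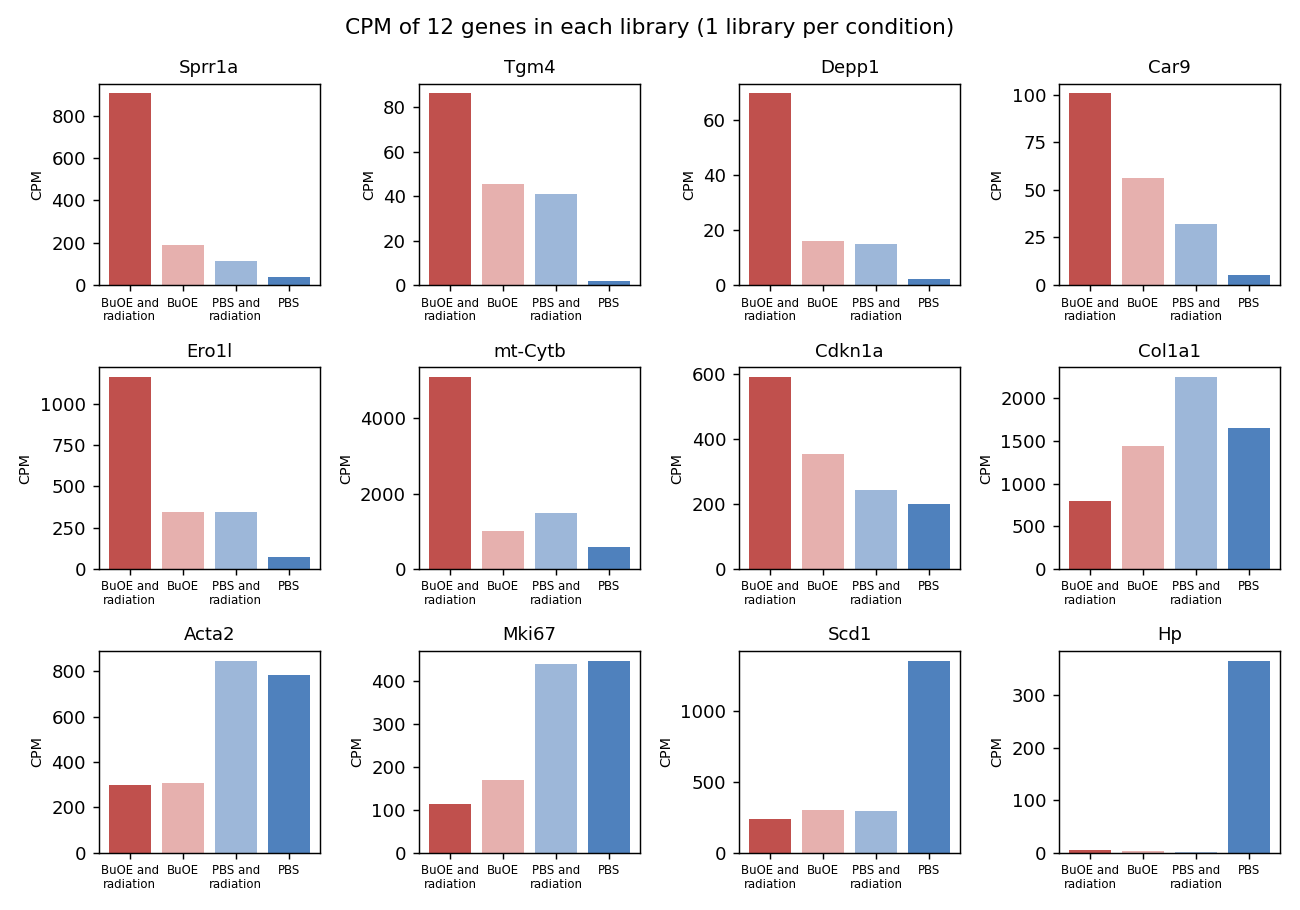
CPM (y axis, from 0) of 12 genes in the 4 libraries (x axis), 1 bar per library and no error bars since each condition has 1 library. Sprr1a, Tgm4, Depp1, Car9, Ero1l, mt-Cytb and Cdkn1a are highest in BuOE and radiation and lowest in PBS, Scd1 and Hp are high in PBS only, and Acta2 and Mki67 are low in both libraries with BuOE.

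Genes that handle superoxide and peroxide were mostly within 2-fold. Of 15 enzymes that remove superoxide and peroxide none was 2-fold higher and 1 was 2-fold lower (median -0.14). Sod1, the cytosolic superoxide dismutase, had 192 CPM in BuOE_rad, 149 in BuOE, 152 in PBS_rad and 159 in PBS. Sod2, the mitochondrial one, had 109 CPM in BuOE_rad, 105 in BuOE, 89.7 in PBS_rad and 85.9 in PBS. Sod3, the extracellular one, had 106 CPM in BuOE_rad, 127 in BuOE, 116 in PBS_rad and 84.3 in PBS. The log2 ratios of these 3 were 0.27, 0.34 and 0.34, so all lay above 0 and within 2-fold. Cat, catalase, had 134 CPM in BuOE_rad, 121 in BuOE, 115 in PBS_rad and 152 in PBS. Prdx1, a peroxiredoxin, had 1103 CPM in BuOE_rad, 941 in BuOE, 977 in PBS_rad and 1659 in PBS. Gpx7, an ER peroxidase, had 9.88 CPM in BuOE_rad, 13.5 in BuOE, 19.9 in PBS_rad and 24.7 in PBS. All 3 of these were highest in PBS.

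Of 30 targets of NRF2, the transcription factor of the antioxidant response, 12 lay above 0 and 18 below, 2 were 2-fold higher and 1 was 2-fold lower (median -0.21). Over all genes 53.3% lay below 0, 9.14% were 2-fold higher and 6.27% were 2-fold lower. Nqo1, a quinone reductase, had 229 CPM in BuOE_rad, 178 in BuOE, 223 in PBS_rad and 391 in PBS. Hmox1, which degrades heme, had 2005 CPM in BuOE_rad, 1261 in BuOE, 1326 in PBS_rad and 1686 in PBS. The ferritin chains Fth1 and Ftl1 had log2 ratios of 0.55 and -0.011, and that of Ftl1 changed sign with DESeq2 size factors and with upper-quartile scaling. Ephx1, an epoxide hydrolase, had 134 CPM in BuOE_rad, 76.7 in BuOE, 48.2 in PBS_rad and 54.1 in PBS, with BuOE_rad highest. Among 9 enzymes that produce superoxide or nitric oxide, Nos2, the inducible nitric oxide synthase, had 17.1 CPM in BuOE_rad, 9.73 in BuOE, 10.1 in PBS_rad and 2.35 in PBS. Nox4, an oxidase that makes hydrogen peroxide, had 3.7 CPM in BuOE_rad, 4.49 in BuOE, 7.89 in PBS_rad and 5.62 in PBS. Nos2 was lowest in PBS and Nox4 lowest in BuOE_rad. Of 12 metallothionein and metal handling genes, Slc40a1, the iron exporter ferroportin, had the lowest ratio, with 25.3 CPM in BuOE_rad, 41 in BuOE, 30.7 in PBS_rad and 61.7 in PBS.

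Inflammatory genes were higher in some classes. Of 31 secreted factors listed for senescent cells 9 were 2-fold higher and 2 were 2-fold lower (median 0.46). Igfbp2, a binding protein of insulin-like growth factors, had 24.3 CPM in BuOE_rad, 15.8 in BuOE, 5.08 in PBS_rad and 4.6 in PBS. Il6, interleukin 6, had 34.2 CPM in BuOE_rad, 54.5 in BuOE, 45.1 in PBS_rad and 24.8 in PBS. Csf1, the macrophage growth factor, had 1349 CPM in BuOE_rad, 831 in BuOE, 1894 in PBS_rad and 2781 in PBS. Csf1 was lowest in BuOE and highest in PBS. Of 21 NF-kB genes 15 lay above 0 and 4 were 2-fold higher (median 0.21). Nfkbia, the inhibitor that NF-kB induces, had 268 CPM in BuOE_rad, 107 in BuOE, 91.6 in PBS_rad and 69.2 in PBS. Tnfaip2, induced by tumor necrosis factor, had 129 CPM in BuOE_rad, 102 in BuOE, 181 in PBS_rad and 224 in PBS, the lowest ratio of the list. None of 30 interferon-stimulated genes was 2-fold apart (median 0.12). Irf7, which amplifies the interferon response, had 145 CPM in BuOE_rad, 86.1 in BuOE, 103 in PBS_rad and 135 in PBS.

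Steroid, Wnt and ribosomal genes gave further groups. Of 14 glucocorticoid and steroid response genes 6 were 2-fold higher and none 2-fold lower (median 0.54). Zbtb16, a zinc finger factor induced by glucocorticoids, had 37 CPM in BuOE_rad, 12 in BuOE, 8.84 in PBS_rad and 7.19 in PBS. Fkbp5, the chaperone partner of steroid receptors, had 71.4 CPM in BuOE_rad, 92.9 in BuOE, 100.4 in PBS_rad and 106 in PBS, highest in PBS and lowest in BuOE_rad. Of 22 Wnt genes 4 were 2-fold higher and 2 were 2-fold lower (median 0.33). Wif1, a secreted inhibitor of Wnt, had 15.9 CPM in BuOE_rad, 8.25 in BuOE, 1.88 in PBS_rad and 0.238 in PBS, from 7 counts in the PBS library. Wnt2, a ligand, had 8.27 CPM in BuOE_rad, 6.07 in BuOE, 12.5 in PBS_rad and 25.4 in PBS. Of 28 cytosolic ribosomal protein genes 27 lay above 0, none was 2-fold apart, and BuOE_rad was the highest library for 27 of them (median 0.51). Over all genes BuOE_rad was the highest library for 28.4%. Rpl4, of the large subunit, had 1690.4 CPM in BuOE_rad, 1067 in BuOE, 1195 in PBS_rad and 1278 in PBS. Autophagy and lysosome genes had 14 of 24 above 0. Map1lc3a, an autophagosome protein, had the highest ratio of them, with 63.5 CPM in BuOE_rad, 49.5 in BuOE, 36.1 in PBS_rad and 25.8 in PBS.

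Prostate secretory genes ran from a log2 ratio of -5.88 to 5.45. Of 23, 20 were measured, of which 16 lay above 0 and 4 below, 14 were 2-fold higher and 2 were 2-fold lower, with a median log2 ratio of 1.93. Svs2, a semenogelin-like protein of seminal vesicle fluid, had 467 CPM in BuOE_rad, 214 in BuOE, 286 in PBS_rad and 48.1 in PBS. Pbsn, the androgen-driven secreted protein probasin, had 50.7 CPM in BuOE_rad, 7.26 in BuOE, 9.46 in PBS_rad and 2.69 in PBS. Msmb, beta-microseminoprotein, had 44.5 CPM in BuOE_rad, 7.52 in BuOE, 9.09 in PBS_rad and 2.04 in PBS. Pbsn and Msmb are among the genes chosen for their high ratio. Pate4, a secreted protein of the male tract, had 41 CPM in BuOE_rad, 12 in BuOE, 21.5 in PBS_rad and 2.08 in PBS. Defb50, a beta-defensin, had 47.5 CPM in BuOE_rad, 11.2 in BuOE, 12.6 in PBS_rad and 4.12 in PBS. Sbp and Spink1 ran against them. Spink1, a serine protease inhibitor of prostate and pancreas, had 2.63 CPM in BuOE_rad, 51.3 in BuOE, 56.1 in PBS_rad and 18.9 in PBS, and like Sbp it was lowest in BuOE_rad. Seminal vesicle genes are near-identical copies of each other in part, which makes their counts uncertain. The summed level of the list was 1779 CPM in BuOE_rad, 1447 in BuOE, 1266 in PBS_rad and 1046 in PBS. Of these sums Sbp alone held 12.8 CPM in BuOE_rad, 428 in BuOE, 439 in PBS_rad and 757 in PBS.

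Epithelial markers had 20 of 25 above 0 and 6 were 2-fold higher (median 0.54). Cldn4, a tight junction claudin, had 1438 CPM in BuOE_rad, 847 in BuOE, 602 in PBS_rad and 506 in PBS. Elf3, an epithelial transcription factor, had 185 CPM in BuOE_rad, 79.7 in BuOE, 59.8 in PBS_rad and 35.1 in PBS. Krt19, a keratin of luminal cells, had 595 CPM in BuOE_rad, 771 in BuOE, 528 in PBS_rad and 886 in PBS. Cldn4 and Elf3 were lowest in PBS, and Krt19 was highest there. Krt8, the luminal keratin, had 868 CPM in BuOE_rad, 1050.3 in BuOE, 789 in PBS_rad and 934 in PBS, and its log2 ratio of -0.11 became 0.00058 with upper-quartile scaling. Of 23 cornified envelope genes 11 were measured, of which 5 were 2-fold higher and 1 was 2-fold lower, Krt6a, a stress keratin, with 27.2 CPM in BuOE_rad, 112 in BuOE, 41.8 in PBS_rad and 127 in PBS. Fibroblast markers had 9 of 18 above 0, with a median of -0.16 that became 0.059 with a limit of 10 CPM. Dcn, the proteoglycan decorin, had 1324 CPM in BuOE_rad, 882 in BuOE, 994 in PBS_rad and 511 in PBS. Vim, vimentin, had 1501 CPM in BuOE_rad, 1545 in BuOE, 2073 in PBS_rad and 2551 in PBS. The 2 genes thus lay on opposite sides of 0. Of 8 urothelial markers 2 were 2-fold higher, and of 8 mesothelial markers none was 2-fold apart. The part of marker levels in the ratios of the other groups was not tested. With the markers of all cell type lists but the fibroblast list left out, 1252 genes were 2-fold higher and 881 were 2-fold lower. Leaving these genes out does not change the ratio of any other gene, so it cannot show that part.

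Markers of vessels and nerve were mostly above 0. Of 14 endothelial markers 13 lay above 0 and 5 were 2-fold higher, and their summed level was 1180.3 CPM in BuOE_rad, 1074 in BuOE, 1345 in PBS_rad and 733 in PBS. Flt1, a receptor of vascular endothelial growth factor, had 223 CPM in BuOE_rad, 129 in BuOE, 187 in PBS_rad and 60.3 in PBS. Of 10 pericyte markers 7 were 2-fold higher, while their summed level was 827 CPM in BuOE_rad, 1017 in BuOE, 985 in PBS_rad and 776 in PBS. Cox4i2, a hypoxia-linked subunit of complex IV, had the highest ratio, with 11.6 CPM in BuOE_rad, 3.69 in BuOE, 3.28 in PBS_rad and 0.409 in PBS. The markers with the most counts, Pdgfrb and Cspg4, ran the other way. Pdgfrb, a receptor of platelet-derived growth factor, had 198 CPM in BuOE_rad, 309.8 in BuOE, 442 in PBS_rad and 362 in PBS, and Cspg4, the proteoglycan NG2, had 152 CPM in BuOE_rad, 239.9 in BuOE, 201 in PBS_rad and 275 in PBS. Schwann cell markers lay above 0 in 13 of 13, with a summed level of 382 CPM in BuOE_rad, 675 in BuOE, 462 in PBS_rad and 214 in PBS. Their order put BuOE highest and PBS lowest. Of 28 neuronal genes 15 were 2-fold higher and 1 was 2-fold lower, and their summed level was 304 CPM in BuOE_rad, 1439 in BuOE, 479 in PBS_rad and 223 in PBS. BuOE_rad was the highest of the 4 libraries for 1 of the 28, Npy, and the lowest for 5. Npy, neuropeptide Y, had 141 CPM in BuOE_rad, 126 in BuOE, 57.8 in PBS_rad and 14.8 in PBS, so without it the sum was lower in BuOE_rad than in PBS. Uchl1, a ubiquitin hydrolase of neurons, had 58 CPM in BuOE_rad, 144 in BuOE, 81.9 in PBS_rad and 90.5 in PBS, and Nefl, the light neurofilament chain, had 11.6 CPM in BuOE_rad, 45.3 in BuOE, 13.3 in PBS_rad and 25.8 in PBS, so both were lower in BuOE_rad than in PBS. Syt1, a synaptic vesicle protein, had 0.864 CPM in BuOE_rad, 13.8 in BuOE, 4.46 in PBS_rad and 0 in PBS. With no count in PBS, Syt1 was 8.46-fold higher in BuOE_rad against a floor of 3 counts in the PBS library. Its log2 counting interval began at 2.65, and BuOE_rad lay below both single-treatment libraries.

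Of 19 adipocyte and lipid storage genes 18 were measured, of which 9 were 2-fold lower, with a median of -1.42 and a summed level of 1457 CPM in BuOE_rad, 1245 in BuOE, 1214 in PBS_rad and 2856 in PBS. Scd1, also counted under fatty acid synthesis, alone held 236 CPM of the sum in BuOE_rad, 302 in BuOE, 295 in PBS_rad and 1349.9 in PBS. Retn, the adipokine resistin, had 0.0412 CPM in BuOE_rad, 0.066 in BuOE, 0.0842 in PBS_rad and 5.35 in PBS, with 1 count in BuOE_rad and a log2 counting interval of -12.33 to -4.52. Plin2, which coats lipid droplets in most cell types, had 552 CPM in BuOE_rad, 475 in BuOE, 441 in PBS_rad and 504.1 in PBS. Of 14 skeletal muscle genes 7 were measured, of which 2 were 2-fold higher and 4 were 2-fold lower. The most expressed of them, Des, was higher, with 145 CPM in BuOE_rad, 85.6 in BuOE, 58.9 in PBS_rad and 38.2 in PBS. Myog, the myogenic factor myogenin, had no count in BuOE_rad or BuOE, 3.37 CPM in PBS_rad and 1.16 CPM in PBS. Set against a floor of 3 counts, Myog was 9.38-fold lower in BuOE_rad than in PBS, and its log2 counting interval reached up to -2.85. Macrophage markers lay above 0 in 13 of 14 and none was 2-fold apart, with Cd68, a lysosomal protein, at 126 CPM in BuOE_rad, 85.7 in BuOE, 64.8 in PBS_rad and 65.4 in PBS. Of 8 erythroid genes the 3 measured were 2-fold lower, with Hbb-bs, a beta globin with a near-identical copy, at 21.8 CPM in BuOE_rad, 8.81 in BuOE, 3.71 in PBS_rad and 49.5 in PBS.

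Some genes set the BuOE_rad library apart from all the others, single treatments included. BuOE_rad was the highest of the 4 libraries for 4081 genes (28.4%) and the lowest for 5076 (35.3%). By the ratio to the highest of the other 3 libraries, the leading genes at 10 CPM or more were Pbsn, Msmb, Sprr1a, mt-Nd2, Depp1 and Defb50, which exceeded the next library 5.33-fold, 4.86-fold, 4.76-fold, 4.39-fold, 4.33-fold and 3.75-fold. In the other direction stood Sbp, Spink1, Heyl, Kif26b, Lars2 and Unc5c. Heyl, a target of Notch signalling, had 7.49 CPM in BuOE_rad, 43.8 in BuOE, 24 in PBS_rad and 36.4 in PBS. Kif26b, a kinesin-like protein of Wnt5a signalling, had 14.4 CPM in BuOE_rad, 82.5 in BuOE, 44.4 in PBS_rad and 78.8 in PBS. Unc5c, a netrin receptor, had 3.99 CPM in BuOE_rad, 11.3 in BuOE, 24.5 in PBS_rad and 21.3 in PBS. That BuOE_rad was the lowest library in these 6 is how they were chosen.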

How the data were processed

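RNA of cultured prostate cells was sequenced in bulk in 4 libraries, grouped by the labelled treatment. Raw whole-number counts per gene, as deposited, were used. Per the submitters' processing notes the tools were Trim Galore 0.6.4, FastQC, Salmon 1.4.0, edgeR 4.2.2 and featureCounts, with the build GRCm39; their roles, strand and the handling of reads with several matches are not given in the sources used here. No sample column was left unused.

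Symbols, biotypes and lengths came from GENCODE M21 by Ensembl ID (4623 of 56748 IDs had no symbol and held 0.682% of counts in BuOE_rad, 1.28% in BuOE, 1.03% in PBS_rad and 1.18% in PBS; they stayed in the totals). That annotation and the RefSeq upstream windows are of GRCm38, so coordinates are given for those windows only, 1 window per gene, the first listed. Of 47 genes searched for the strand check, 38 had their start in a sense transcript of the annotation.

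CPM used TMM factors from edgeR 4.0.16 in R 4.3.3, which were 0.972 (BuOE_rad), 1.05 (BuOE), 0.992 (PBS_rad) and 0.987 (PBS). Genes with a mean of 1 CPM or more were kept. Log2 ratios are BuOE_rad over PBS with a prior count of 2, and they understate the change of genes with few counts. The 95% interval of a ratio comes from the exact binomial (Clopper-Pearson) bounds on the share of BuOE_rad in both counts together. The ratio and interval steps were tested on simulated data.

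The rule for named genes took the 12 highest and 12 lowest ratios at 10 CPM or more, without unnamed IDs, gene models, pseudogenes, ribosomal genes or small RNAs. It added the 6 genes highest above and the 6 lowest below the other 3 libraries, a fixed set of 24 genes and, per list, the 2 most expressed members and both extremes of ratio. Names outside that rule were chosen after their values were seen. The members and the 54 lists were chosen with earlier results of these data known, and the histone, clock and MHC class I lists after values were seen here. Alternatives were other scalings (among them DESeq2 1.42.0 size factors), filters and prior counts. Some genes named by the rule are not reported here.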

Additional observations from a re-analysis of the deposited data

How the results depend on the processing

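Counts of genes 2-fold higher and lower, 1313 and 901, stayed within 1.5 times under DESeq2 size factors, library size alone and upper-quartile factors. They did so too with prior counts of 0.5 and 5, totals without mitochondrial mRNAs, protein-coding genes only and without markers of non-fibroblast cell types. They were 3715 and 2737 with no filter on low values, 605 and 487 with a mean of at least 10 CPM, 807 and 530 when the bound of the counting interval nearest to 0 had to pass 2-fold, and 539 and 393 in the longer-transcript part of the genes, a choice made after seeing the data, as was leaving out marker genes. The first 2 and the last test other numbers of genes, and the third is stricter by construction. In 4 equal bins of transcript length, from short to long, 11.6%, 9.57%, 7.66% and 7.46% of genes were higher and 7.30%, 6.76%, 6.17% and 4.85% lower; the cause was not tested.

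Upper-quartile scaling moved the median over all genes from -0.048 to 0.058 and the share of 2-fold genes that were higher from 59.3% to 68.3%. Of the medians of lists over all settings, 376 stayed within the set spread, 38 moved and 9 changed sign. With upper-quartile scaling these were YAP and TEAD targets (0.089), heat shock genes (0.0026), fatty acid oxidation genes (0.086) and nuclear long noncoding RNAs (0.011). With no filter it was nuclear long noncoding RNAs (0.40), and with 10 CPM or more they were matrix protease inhibitors (-0.073), contractile genes (-0.0084), fibroblast markers (0.059) and skeletal muscle genes (1.92, from Des alone). Of the values of single genes, 1569 stayed within their counting interval, 163 moved, and no gene past 2-fold changed sign. The cause was not tested. No paired analysis was possible because each condition has 1 library and no test was run. Leaving out a replicate was not possible for the same reason. A gene at 0 in a library was set against a floor of 3 counts, and interval widths cover counting error only, not the spread between animals or cultures.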

Other observations

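Genes of the circadian clock were mostly higher in BuOE_rad than in PBS. Of 23 measured, 21 lay above 0 and 11 were 2-fold higher, where 9.14% of all genes were, with a median log2 ratio of 0.99. Nr1d1, the repressor Rev-erb alpha, had 233 CPM in BuOE_rad, 82.5 in BuOE, 57.3 in PBS_rad and 45.9 in PBS, a log2 ratio of 2.34 (counting interval 2.25 to 2.43). Bhlhe40, another repressor of the clock, had 674 CPM in BuOE_rad, 414 in BuOE, 345 in PBS_rad and 249 in PBS. Arntl, the activator Bmal1, ran the other way with 24.4 CPM in BuOE_rad, 25.7 in BuOE, 25.8 in PBS_rad and 30.9 in PBS. For Nr1d1 and Bhlhe40 the order was BuOE_rad, BuOE, PBS_rad, PBS from high to low. The times at which cultures were lysed are not in the labels, and the list was chosen after values were seen.

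Of 20 genes of antigen presentation by MHC class I, 15 lay above 0, 2 were 2-fold higher and none 2-fold lower, with a median of 0.56. H2-Q6, a nonclassical class I chain, had 22.8 CPM in BuOE_rad, 10.7 in BuOE, 4.07 in PBS_rad and 5.38 in PBS, and Psmb10, an immunoproteasome subunit, had 11.3 CPM in BuOE_rad, 15.3 in BuOE, 12.9 in PBS_rad and 20.2 in PBS. Class I genes are near-identical copies of each other, so these counts are uncertain, and this list was also chosen after values were seen.

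Nuclear long noncoding RNAs showed 4 of 8 above 0. Malat1, a nuclear speckle RNA, had 9655 CPM in BuOE_rad, 4488 in BuOE, 4566 in PBS_rad and 3900.0 in PBS, and Mirg, an imprinted transcript of the Dlk1-Dio3 region, had 3.79 CPM in BuOE_rad, 3.03 in BuOE, 8.53 in PBS_rad and 10.7 in PBS. The list median of -0.096 became 0.40 with no filter and 0.011 with upper-quartile scaling. The unnamed gene ENSMUSG00000119584 had 1893 CPM in BuOE_rad, 8683 in BuOE, 5737 in PBS_rad and 8827 in PBS, the largest difference in CPM of any gene that was lower in BuOE_rad than in PBS, and it was not matched to a symbol in the annotation used here.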
